A study of Homo sapiens with 240 samples.

Results

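The genes described here are 43 components of autophagy, taken by symbol from a list that covers the ULK kinase complex, the phosphatidylinositol 3-kinase complex, membrane supply, ATG8 lipidation, the ATG8 proteins, cargo receptors and autophagosome fusion. They are 43 of 27234 genes listed in each of 5 tables of TPM, a transcript abundance scaled by transcript length and by library. A level of 1 TPM in at least 3 libraries of a table was required for testing, and 42 of the 43 met it in every table. The exception was MAP1LC3A, an ATG8 gene that stayed under 1 TPM in all 240 libraries and is listed at 0, 0 and 0.056 TPM in AMPK WT cells under DMSO.

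Macroautophagy encloses cytoplasm in a double membrane and delivers it to the lysosome. The ULK kinase starts the process, a class III phosphatidylinositol 3-kinase marks the site, ATG2 and ATG9 supply lipid, and ATG8 proteins are conjugated to the growing membrane, where receptors tether cargo before the autophagosome fuses with the lysosome. AMPK, the kinase activated when cellular energy falls, phosphorylates ULK1, and the transcription factors TFEB and TFE3 are known to activate lysosomal and autophagy genes once they enter the nucleus.

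Polyadenylated RNA was measured in HEK 293T cells, a transformed human embryonic kidney line, in 80 groups of 3 libraries. AMPK KO cells and AMPK WT cells received DMSO at 0 h, or for 2, 4, 8 or 16 h one of these compounds: 991, which activates AMPK directly, CCCP, which uncouples mitochondria, and phenformin (Phen) or rotenone (Rot), which block respiratory complex I. SA5 FNIP1 cells and WT FNIP1 cells are both FNIP1 knockouts that received a FNIP1 cDNA, which in SA5 carries alanine at the 5 sites that AMPK phosphorylates, and both had 991 for 2, 4, 8 or 16 h or DMSO. TFEB+TFE3 KO cells (DKO), ESRRA KO cells and siPGC1a cells were each set beside their own control (WT, WT and siControl) with 991 for 2, 4, 8, 16 or 24 h or DMSO. The questions were how far the responses to energetic stress need AMPK, its FNIP1 sites, TFEB and TFE3, ERRα and PGC1α. Doses, numbers of clones and whether libraries came from separate cultures are not stated. P-values therefore measure the spread between the 3 libraries of a group, pooled over all groups of a table, which may be technical. DMSO was sampled at 0 h only, so each change from DMSO also carries the time in culture, and all compounds within an arm share the same DMSO libraries.

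Across the series, the targeted RNA differed as follows. PRKAA1 ranged from 2.15 to 3.73 TPM in AMPK KO libraries and from 6.03 to 10.6 TPM in AMPK WT libraries, while PRKAA2, the other catalytic subunit, overlapped (2.55 to 4.87 TPM in KO, 3.77 to 7.40 TPM in WT). PPARGC1A ranged from 0.015 to 0.107 TPM in siPGC1a and from 0.254 to 0.484 TPM in siControl libraries. TFEB (1.32 to 2.72 TPM in DKO, 1.24 to 3.56 TPM in WT), TFE3 (7.18 to 10.2 TPM in DKO, 8.82 to 14.01 TPM in WT) and ESRRA (4.44 to 8.46 TPM in ESRRA KO, 8.01 to 12.7 TPM in WT) overlapped between arms, and since the edited positions are not given these levels do not check those labels. Of 14 markers of blood, endothelium, fibroblasts, keratinocytes and hepatocytes, 1 or 2 passed the level filter in each table, and HBB was at 0 in every AMPK library. Their TPM summed to between 2.34 and 9.34 in the AMPK table, of which COL1A1 gave 1.66 to 5.64. Among kidney and epithelial markers, KRT8, KRT18 and CDH2 were expressed and PAX8 reached at most 0.059 TPM. FNIP1 itself averaged 181 ± 5.71 TPM in ESRRA KO and 211 ± 9.72 TPM in their WT cells under DMSO, and 228 ± 5.49 TPM in siPGC1a and 138 ± 4.38 TPM in siControl cells (SD, n = 3 each). It averaged 2.77 ± 0.61 TPM in AMPK KO and 2.79 ± 0.167 TPM in AMPK WT cells, and 5.28 ± 0.0776 TPM in DKO and 4.06 ± 0.0342 TPM in their WT cells. In the WT FNIP1 cells, which carry a FNIP1 cDNA, it averaged 232.6 ± 10.03 TPM. The labels of the ESRRA and PGC1a experiments mention no FNIP1 cDNA, and the part of these FNIP1 levels in the results was not tested. In the FNIP1 table, SA5 FNIP1 DMSO replicate 1 held 5.47 TPM of FNIP1, against a median of 173.99 TPM over SA5 libraries, and it stood apart over all genes. SA5 FNIP1 991 8 h replicate 1 was also low at 45.05 TPM. Results that rest on these libraries are given with and without them.

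Promoters of 7 members are printed here. WIPI1, ULK2, GABARAPL1 and WDR45 are shown as members with large changes below, and ATG3, ATG14 and SNAP29 as the members whose windows hold an E-box. Each is read 5′ to 3′ on the gene's strand from RefSeq windows of GRCh38.p14, which run from 250 bases before to 50 bases after a start. Whole windows are given for WIPI1 (chr17:68457447-68457746, minus strand), ULK2 (chr17:19867887-19868186, minus), GABARAPL1 (chr12:10212627-10212926, plus) and WDR45 (chrX:49079838-49080137, minus). Stretches are given for ATG3 (chr3:112561931-112562001, minus), ATG14 (chr14:55411825-55411871, minus) and SNAP29 (chr22:20858803-20858849, plus). Capitals mark TCACGTG or its complement in the last 3 (the E-box CACGTG extended by 1 base, as in the CLEAR element that TFEB and TFE3 bind) and TGATGTAA in WDR45 (a match to TGATGNAA, the core of the C/EBP-ATF element).
WIPI1: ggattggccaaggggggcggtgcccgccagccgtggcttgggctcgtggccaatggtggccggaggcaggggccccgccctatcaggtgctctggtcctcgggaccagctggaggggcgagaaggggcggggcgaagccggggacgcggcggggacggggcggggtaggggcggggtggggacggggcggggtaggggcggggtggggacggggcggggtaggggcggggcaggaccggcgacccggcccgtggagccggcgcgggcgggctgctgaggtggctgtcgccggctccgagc
ULK2: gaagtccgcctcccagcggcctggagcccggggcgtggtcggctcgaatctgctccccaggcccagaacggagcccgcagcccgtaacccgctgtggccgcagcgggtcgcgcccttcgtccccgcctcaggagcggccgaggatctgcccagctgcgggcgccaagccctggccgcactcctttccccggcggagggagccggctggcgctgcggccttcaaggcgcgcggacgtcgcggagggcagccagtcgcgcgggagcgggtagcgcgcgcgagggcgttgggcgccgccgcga
GABARAPL1: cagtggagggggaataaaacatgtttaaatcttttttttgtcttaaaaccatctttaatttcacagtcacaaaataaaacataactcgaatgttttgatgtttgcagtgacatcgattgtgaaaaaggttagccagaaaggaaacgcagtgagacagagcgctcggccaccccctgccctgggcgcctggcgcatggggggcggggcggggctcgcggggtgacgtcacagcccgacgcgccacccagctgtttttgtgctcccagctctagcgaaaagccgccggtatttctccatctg
WDR45: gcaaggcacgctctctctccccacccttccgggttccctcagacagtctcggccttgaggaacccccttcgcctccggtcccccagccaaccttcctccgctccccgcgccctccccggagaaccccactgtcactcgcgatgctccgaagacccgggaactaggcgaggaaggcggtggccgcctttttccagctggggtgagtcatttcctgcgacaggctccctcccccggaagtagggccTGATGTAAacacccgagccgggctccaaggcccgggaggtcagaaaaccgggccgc
ATG3: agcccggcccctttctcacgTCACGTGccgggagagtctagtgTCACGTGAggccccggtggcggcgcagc
ATG14: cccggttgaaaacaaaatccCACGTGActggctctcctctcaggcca
SNAP29: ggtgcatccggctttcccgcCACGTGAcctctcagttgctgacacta

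Windows were found for 37 of the 43 members, 46 windows in all. On both strands, CACGTG was present in 3 of the 46 member windows, against 7.26% of all 35116 windows, and TCACGTG, which overlaps it, in the same 3, against 3.71% of all. TGATGNAA was in 1 member window (WDR45, 6 bases before the start), against 3.62% of all, and AAGGTCA, the core bound by estrogen-related receptors, in 1 (SQSTM1, in a window that begins 14449 bases from the transcript of the tables), against 3.92% of all. ATG3 holds its matches 18 bases before and 5 bases after the start, ATG14 holds it 21 bases before and SNAP29 184 bases before. The windows of WIPI1, ULK2 and GABARAPL1 hold none of the 4 letter strings, which says only that these letters are not in these 300 bases.

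In AMPK WT cells under DMSO the ATG8 genes were the most abundant members. GABARAP averaged 123.6 ± 4.05 TPM and GABARAPL2 104.7 ± 2.65 TPM (SD, n = 3). MAP1LC3B (40.9 ± 3.36 TPM), ATG3 (40.03 ± 2.39 TPM) and SQSTM1 (39.98 ± 1.99 TPM) came next and lay within each other's spread. The lowest tested members were ATG10 (1.67 ± 0.294 TPM), ULK2 (1.35 ± 0.174 TPM) and EPG5 (1.23 ± 0.0619 TPM), whose fold changes on the log2(TPM + 1) scale used here understate the change in TPM.

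Most of the autophagy genes rose in 991-treated WT cells, and more of them at the later times. At 2 h, 9 of the 42 tested members were higher than in DMSO (5.94% of all genes were), at 4 h 17 (27% of all), at 8 h 24 (41.3% of all) and at 16 h 29 (41.9% of all). At 16 h 4 members were lower (26.9% of all genes were): BECN1, ATG2A, ATG4D and MAP1LC3B. The median member change was 0.22 on the log2 scale, against 0.07 over all genes. Under median-ratio scaling, which sets the all-gene median near 0, 23 rose and 7 fell, with a median of 0.15. Here and below, "rose" and "fell" mean an adjusted p under 0.05 in limma, adjusted over all genes tested, and ± after a log2 change is its standard error. In bulk RNA, a change in the number of cells that express a gene and a change in RNA per cell cannot be told apart. Where no share of all genes is given for a count, here and below, the count was not set against one. Such a count does not show whether the members differ from all genes.

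**Figure D1:**
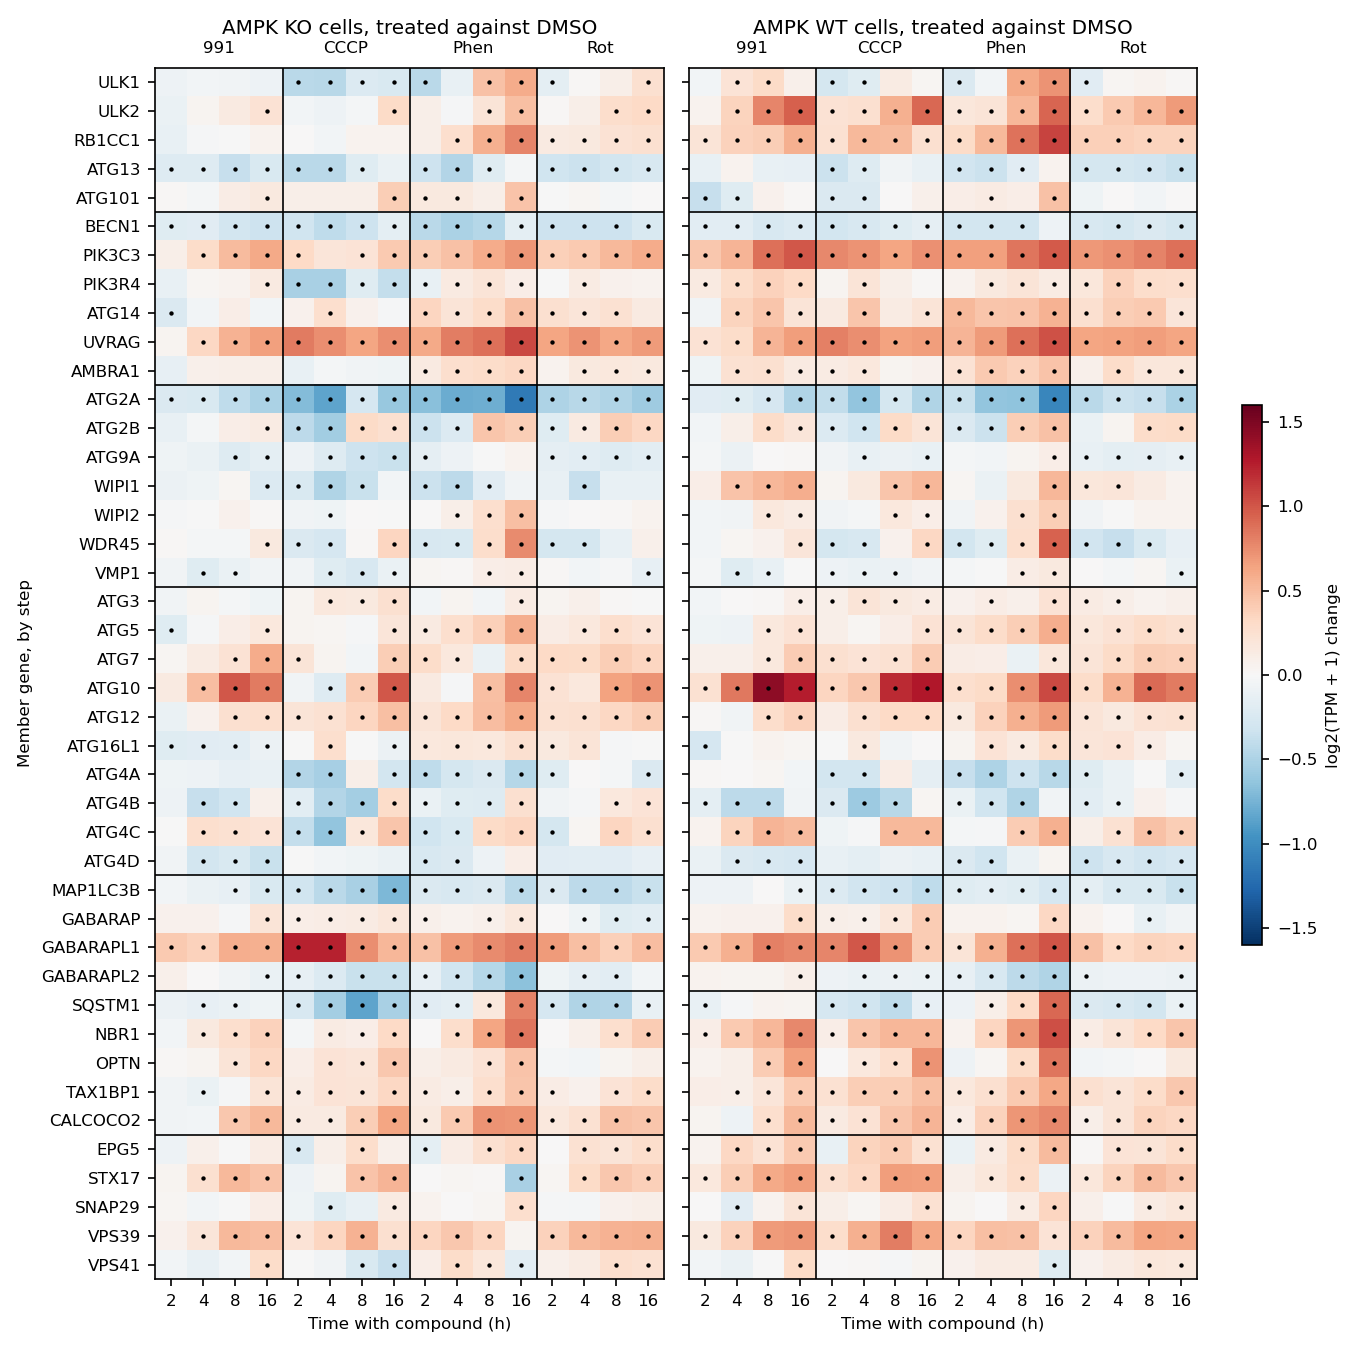
Log2 change from DMSO of the 42 tested members (rows, grouped by step) with each compound at 2, 4, 8 and 16 h, in AMPK KO cells (left) and AMPK WT cells (right). Color runs from lower to higher and a black dot marks an adjusted p under 0.05; with 991 at 16 h, 21 members rose in KO cells and 29 in WT cells.

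Among the ULK complex genes, 2 of 5 rose with 991 at 16 h in WT cells (41.9% of all genes rose), ULK2 and RB1CC1. The responses of both were larger in WT than in KO cells. ULK2, a kinase related to ULK1, was at 1.5, 1.82 and 1.62 TPM with 991 in AMPK KO cells, against 1.07, 1.36 and 1.32 TPM under DMSO, and at 3.36, 3.64 and 3.599 TPM in AMPK WT cells, against 1.15, 1.41 and 1.48 TPM. The treated WT libraries stood above all the others. Its log2 change was 0.23 ± 0.07 (adjusted p = 0.0015) in KO cells and 0.95 ± 0.07 (adjusted p = 4.9e-21) in WT cells, a difference of -0.72 ± 0.09 (adjusted p = 2.4e-08). RB1CC1, which encodes the scaffold FIP200, was at 13.9, 13.04 and 12.9 TPM in KO cells, against 11.5, 13.2 and 13.5 TPM under DMSO, and at 19.4, 19.7 and 18.8 TPM in WT cells, against 12.6, 12.9 and 12.6 TPM. The KO groups overlapped and the WT groups did not. Its change was 0.06 ± 0.06 (adjusted p = 0.39) in KO cells and 0.57 ± 0.06 (adjusted p = 4e-13) in WT cells, a difference of -0.51 ± 0.08 (adjusted p = 1.1e-05). ULK1 rose in WT cells at 4 h (0.22 ± 0.06) and 8 h (0.31 ± 0.06), and its 16 h change of 0.08 ± 0.06 (adjusted p = 0.27) did not pass. ATG13 and ATG101, which encode further subunits of the complex, did not pass in WT cells at 16 h.

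Of the 6 genes of the phosphatidylinositol 3-kinase complex and its regulators, 5 rose with 991 at 16 h in WT cells and BECN1 fell. Of all genes, 41.9% rose and 26.9% fell there. PIK3C3, the catalytic subunit VPS34, was at 7.81, 7.79 and 7.42 TPM in AMPK KO cells, against 3.63, 5.64 and 4.97 TPM under DMSO, and at 10.9, 10.8 and 10.5 TPM in WT cells, against 4.12, 5.49 and 5.08 TPM. Neither arm's groups overlapped. It rose in both arms, by 0.61 ± 0.10 (adjusted p = 9.7e-08) in KO cells and 1.00 ± 0.10 (adjusted p = 7.7e-15) in WT cells, and the difference of -0.39 ± 0.13 (adjusted p = 0.039) passed. In limma the PIK3C3 difference missed the threshold under each scaling tried and without the libraries numbered 2 or 3 (adjusted p from 0.0027 to 0.34 over all alternatives). UVRAG, a partner of Beclin 1 in a late-acting form of the complex, rose in both arms. It was at 5.31, 5.51 and 5.72 TPM in KO cells, against 2.58, 3.56 and 3.33 TPM under DMSO, and at 4.79, 4.86 and 4.37 TPM in WT cells, against 2.53, 2.64 and 2.54 TPM. The changes were 0.65 ± 0.08 and 0.67 ± 0.08, and the difference was -0.01 ± 0.11 (adjusted p = 0.96). BECN1, which encodes Beclin 1, was at 25.6, 24.6 and 25.5 TPM in treated KO cells, against 33.3, 30.5 and 32.6 TPM under DMSO, and at 29.4, 28.7 and 29.1 TPM in treated WT cells, against 34.8, 32.999 and 34.1 TPM. It fell without overlap in both arms, with changes of -0.34 ± 0.05 and -0.22 ± 0.05. ATG14, the subunit that directs the complex to autophagy, was lower in its response in KO cells at 4 h (-0.40 ± 0.09, adjusted p = 0.0021) and 8 h (-0.34 ± 0.09, adjusted p = 0.0058), while at 16 h the difference of -0.25 ± 0.09 (adjusted p = 0.053) did not pass.

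Membrane supply genes moved in both directions. WIPI1, a phosphoinositide-binding protein of the early autophagosome, had the lowest response difference of any member. With 991 for 16 h it was at 2.16, 2.69 and 2.79 TPM in AMPK KO cells, against 2.92, 3.13 and 3.27 TPM under DMSO, and at 4.701, 4.802 and 4.803 TPM in WT cells, against 2.605, 3.13 and 2.895 TPM. Every treated KO library lay below its DMSO libraries and every treated WT library above. The change was -0.21 ± 0.08 (adjusted p = 0.017) in KO cells and 0.58 ± 0.08 (adjusted p = 3e-09) in WT cells, a difference of -0.79 ± 0.11 (adjusted p = 3.4e-07), already -0.53 ± 0.11 (adjusted p = 0.0009) at 4 h. Its paralog WIPI2 differed by -0.12 ± 0.04 (adjusted p = 0.045). ATG2A, a lipid transfer protein, fell in both arms: it was at 7.69, 6.77 and 6.8 TPM in KO cells, against 10.9, 9.88 and 10.7 TPM under DMSO, and at 5.52, 5.88 and 6.097 TPM in WT cells, against 8.61, 8.32 and 8.74 TPM. Treated and DMSO libraries did not overlap in either arm, with changes of -0.51 ± 0.08 and -0.48 ± 0.08. Its paralog ATG2B moved the other way, by 0.13 ± 0.06 (adjusted p = 0.042) and 0.19 ± 0.06 (adjusted p = 0.0026).

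**Figure D2:**
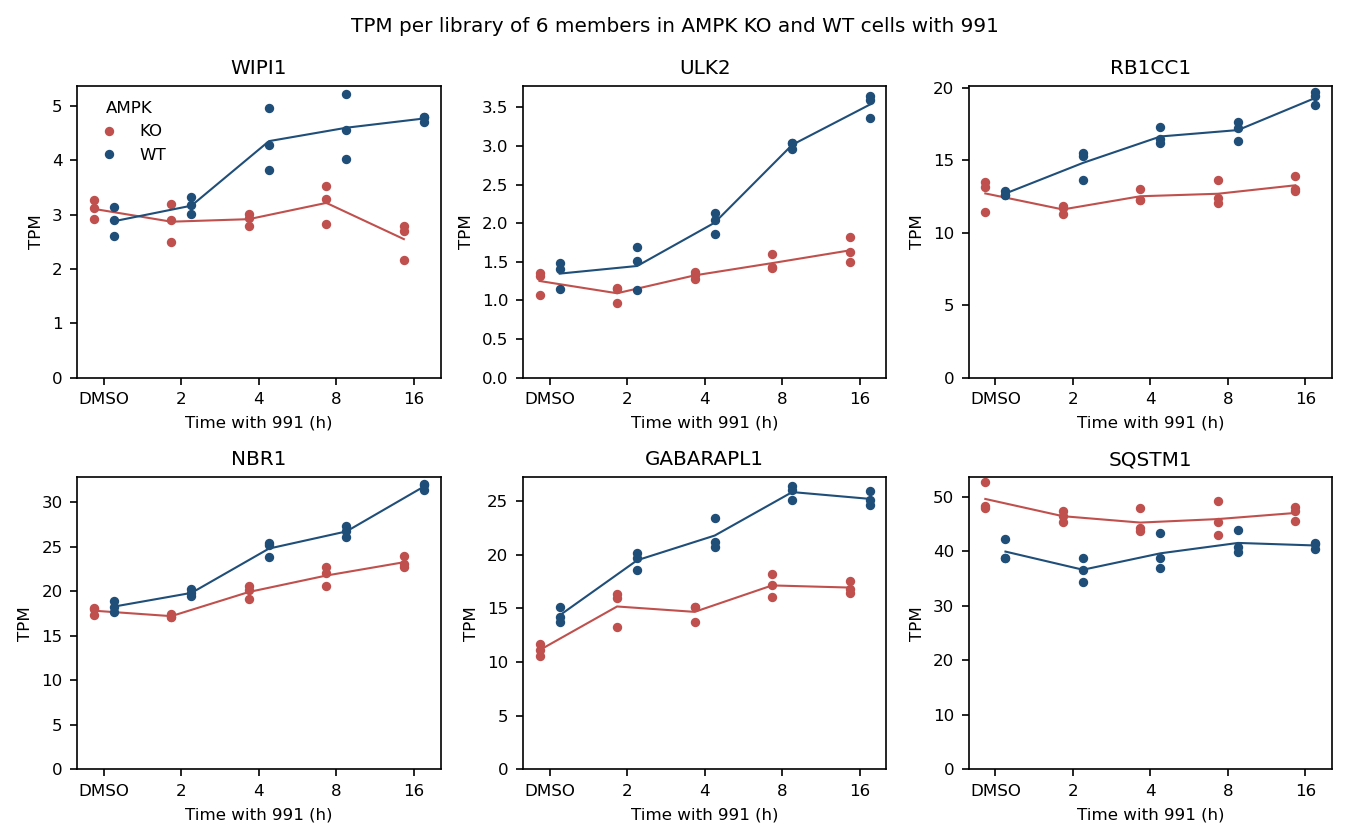
TPM of 6 members in each library of AMPK KO cells (red, left at each time) and AMPK WT cells (blue), under DMSO and after 2, 4, 8 and 16 h of 991, evenly spaced on the x axis; points are libraries and lines join group means. At 16 h WIPI1, ULK2 and RB1CC1 lie clear above DMSO in WT cells and at or below 2.79, 1.82 and 13.9 TPM in KO cells, while GABARAPL1 lies above DMSO in both.

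Of the 10 lipidation genes, which encode the 2 ubiquitin-like conjugation systems and the ATG4 proteases, 6 rose and 1 fell in 991-treated WT cells at 16 h. The shares of all genes were 41.9% and 26.9%. ATG10, the enzyme that joins ATG12 to ATG5, had the largest 991 change of any member in WT cells. It was at 3.47, 2.86 and 3.48 TPM in KO cells, against 1.25, 1.69 and 1.25 TPM under DMSO, and at 5.04, 5.51 and 5.45 TPM in WT cells, against 1.48, 1.52 and 2.01 TPM. No treated library overlapped DMSO in either arm. The change was 0.83 ± 0.09 (adjusted p = 5.5e-13) in KO cells and 1.25 ± 0.09 (adjusted p = 7.4e-21) in WT cells, with a difference of -0.42 ± 0.12 (adjusted p = 0.013), which was -0.20 and missed the threshold without the libraries numbered 2. ATG4C was at 17.8, 16.3 and 16.1 TPM in KO cells, against 13.5, 14.9 and 14.4 TPM under DMSO, and at 21.3, 21.9 and 22.4 TPM in WT cells, against 15.3, 14.9 and 15.2 TPM, and its response differed by -0.29 ± 0.08 (adjusted p = 0.011). ATG7, the activating enzyme of both systems, rose by 0.60 ± 0.06 in KO cells and 0.41 ± 0.06 in WT cells, and the difference of 0.19 ± 0.09 (adjusted p = 0.15) did not pass. ATG3, the conjugating enzyme for ATG8 proteins with E-boxes at its start, had log2 values against DMSO of -0.07 ± 0.04 (adjusted p = 0.13) in KO cells and 0.10 ± 0.04 (adjusted p = 0.013) in WT cells, a difference of -0.17 ± 0.05 (adjusted p = 0.024).

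In the ATG8 family GABARAPL1 had the largest change and rose in both arms. MAP1LC3B has a near-identical copy, MAP1LC3B2, so its values are uncertain where reads could be split between them. GABARAPL1 was at 16.5, 17.5 and 16.8 TPM with 991 at 16 h in AMPK KO cells, against 11.2, 11.6 and 10.5 TPM under DMSO, and at 24.6, 25.1 and 25.96 TPM in WT cells, against 15.1, 14.2 and 13.7 TPM. The groups did not overlap in either arm. The changes were 0.57 ± 0.06 (adjusted p = 2e-12) and 0.77 ± 0.06 (adjusted p = 3.9e-18), and the difference of -0.20 ± 0.09 (adjusted p = 0.1) did not pass. GABARAP, the most abundant member, rose by 0.21 ± 0.03 in KO cells and 0.29 ± 0.03 in WT cells. GABARAPL2 fell in KO cells (-0.11 ± 0.04, adjusted p = 0.024) and rose in WT cells (0.10 ± 0.04, adjusted p = 0.038), a difference of -0.20 ± 0.06 (adjusted p = 0.013).

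Of the 5 cargo receptors, 4 rose with 991 at 16 h in WT cells, where 41.9% of all genes rose, and SQSTM1 did not pass. NBR1, a receptor for ubiquitylated cargo and peroxisomes, was at 22.7, 23.95 and 23.1 TPM in KO cells, against 17.99, 17.3 and 18.2 TPM under DMSO, and at 32.1, 31.4 and 31.9 TPM in WT cells, against 18.9, 18.2 and 17.7 TPM. It rose in both arms without overlap, by 0.37 ± 0.04 (adjusted p = 3.8e-13) and 0.77 ± 0.04 (adjusted p = 2.3e-28), and the difference of -0.40 ± 0.05 (adjusted p = 5.8e-08) passed. OPTN, a receptor for damaged mitochondria and bacteria, was at 7.16, 6.49 and 7.46 TPM in KO cells, against 5.32, 5.49 and 5.41 TPM under DMSO, and at 10.2, 9.99 and 9.73 TPM in WT cells, against 6.45, 5.82 and 5.55 TPM, with a difference in response of -0.34 ± 0.11 (adjusted p = 0.025). CALCOCO2, which encodes the receptor NDP52, was at 33.6, 33.5 and 34.4 TPM in KO cells, against 23.1, 23.4 and 23.2 TPM under DMSO, and at 30.6, 30.3 and 29.8 TPM in WT cells, against 22.3, 20.2 and 19.8 TPM. It rose by 0.52 ± 0.04 in KO cells and 0.52 ± 0.04 in WT cells without overlap. SQSTM1, which encodes p62, was at 45.6, 48.2 and 47.4 TPM in KO cells, against 52.7, 48.3 and 47.9 TPM under DMSO, and at 41.3, 40.4 and 41.6 TPM in WT cells, against 42.3, 38.8 and 38.8 TPM. Its groups overlapped in both arms and neither arm's change passed (-0.07 ± 0.04, adjusted p = 0.13 and 0.04 ± 0.04, adjusted p = 0.42).

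All 5 fusion genes rose with 991 at 16 h in WT cells, where 41.9% of all genes rose. STX17, the autophagosomal SNARE, was at 6.18, 6.32 and 6.47 TPM in KO cells, against 4.03, 4.43 and 4.63 TPM under DMSO, and at 8.16, 8.37 and 7.97 TPM in WT cells, against 4.26, 4.99 and 5.02 TPM. VPS39, a subunit of the HOPS tether, was at 13.03, 13.4 and 14.2 TPM in KO cells, against 8.33, 9.695 and 9.98 TPM under DMSO, and at 15.4, 15.04 and 14.1 TPM in WT cells, against 8.14, 9.21 and 8.79 TPM. Neither gene's treated libraries overlapped DMSO in either arm. Their response differences, -0.22 ± 0.08 (adjusted p = 0.053) for STX17 and -0.21 ± 0.08 (adjusted p = 0.051) for VPS39, missed the threshold. EPG5, a tethering factor, had a lower response in KO cells (-0.30 ± 0.09, adjusted p = 0.011). The SNARE gene SNAP29, whose promoter holds an E-box, differed by -0.10 ± 0.08 (adjusted p = 0.46).

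Over all members, the 991 response was lower in AMPK KO cells than in WT cells for 13 of 42 at 16 h (10% of all genes) and higher for 0 (4.96% of all genes), with 22 at an unadjusted p under 0.05 in either direction in limma. At 4 h 11 were lower (6.57% of all) and at 8 h 16 (15.8% of all). The median difference was -0.08, -0.16 and -0.13 at 4, 8 and 16 h, against -0.02, -0.07 and -0.04 over all genes. In KO cells themselves 21 members still rose at 16 h (34.8% of all genes) and 9 fell, or 18 and 13 under median-ratio scaling. The count of 13 at 16 h became 14 without the libraries numbered 1, 4 without those numbered 2 and 6 without those numbered 3. It was also smaller under median-ratio scaling, as given below. WIPI1, ULK2, RB1CC1 and NBR1 passed in every alternative run. At 4 h the counts were 2 without number 2 and 1 without number 3, and at 8 h 5 and 6. Under DMSO, 10 members were higher in KO cells (16.2% of all genes) and 7 lower (22.7% of all), or 13 and 5 under median-ratio scaling. The total of 17 was 11 without number 2 and 10 without number 3, and no member's difference reached 0.5. GABARAPL1 was lower in KO cells (-0.34 ± 0.06, adjusted p = 4.4e-06), SNAP29 too (-0.30 ± 0.06, adjusted p = 1.5e-05), while SQSTM1 (0.31 ± 0.04, adjusted p = 2.3e-08) and VMP1, an ER protein of early autophagosome formation (0.30 ± 0.03, adjusted p = 2.9e-11), were higher.

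Members of every step rose with the mitochondrial poisons, and the largest number with phenformin. At 16 h in AMPK WT cells, 25 members rose with CCCP (44.1% of all genes) and 6 fell (26.6% of all), 32 rose with phenformin (45.3% of all) and 5 fell (34.9% of all), and 22 rose with rotenone (36.2% of all) and 10 fell (29.2% of all). The CCCP split was 22 and 11 under median-ratio scaling. The median member change was 0.22 with CCCP, 0.46 with phenformin and 0.18 with rotenone, against 0.09, 0.07 and 0.03 over all genes. A rise of at least 0.5 was seen in 13 members with 991, 11 with CCCP, 19 with phenformin and 5 with rotenone. The share of all genes that rose by at least 0.5 is not given here, so these counts were not set against it. Earlier, 15, 21 and 21 members rose with CCCP at 2, 4 and 8 h (24.2%, 28.7% and 35.2% of all genes), 13, 21 and 27 with phenformin (23.7%, 28.3% and 36.8%) and 19, 22 and 23 with rotenone (24.9%, 30.6% and 35.3%). At 2 h each poison had raised more members than the 9 raised by 991, with which 5 fell. More of all genes had risen too, 24.2%, 23.7% and 24.9% with CCCP, phenformin and rotenone against 5.94% with 991. Median-ratio scaling moved the 2 h splits to 10 higher and 3 lower with 991 and to 21 and 8 with phenformin, against 13 and 11 without it.

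**Figure D3:**
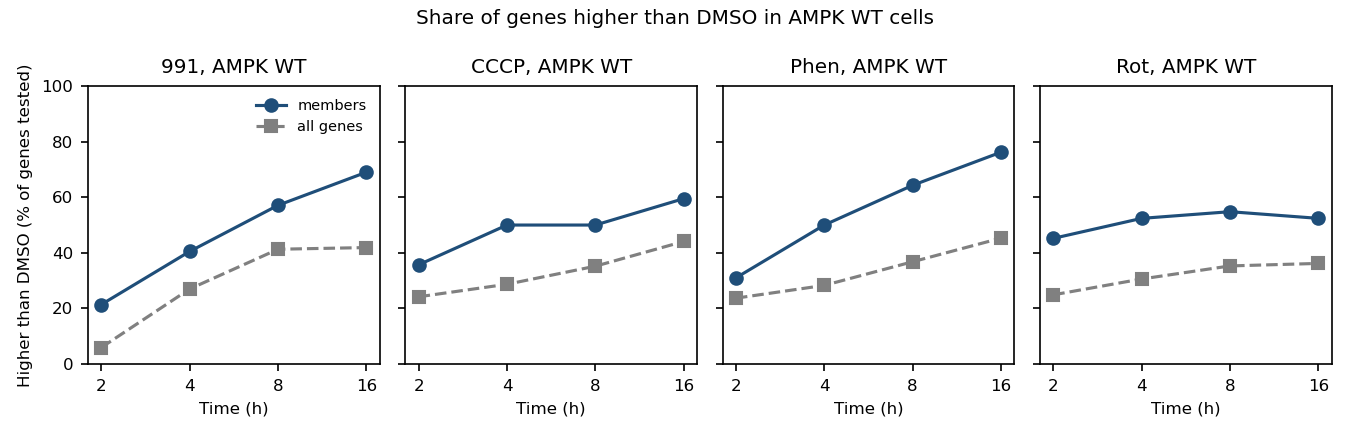
Percent of the 42 tested members and of all genes tested that were higher than DMSO (adjusted p under 0.05) after 2, 4, 8 and 16 h of each compound in AMPK WT cells. With 991 the members climb to 29 of 42 at 16 h, and the widest gap to all genes is with phenformin, 32 of 42 members against 45.3% of all genes.

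Phenformin differed from 991 in many members, as it did in many of all genes. Compared directly with 991 at 16 h in WT cells, 24 members were higher with phenformin (36.7% of all genes) and 10 lower (34.3% of all), while 1 was higher with CCCP (17.7% of all) and 11 lower (13.6% of all), and 0 were higher with rotenone (8.99% of all) and 18 lower (18.9% of all, limma). SQSTM1, whose change with 991 did not pass, was at 90.1, 83.1 and 86.98 TPM with phenformin in KO cells and at 76.2, 76.5 and 76.8 TPM in WT cells, above every DMSO library of its arm. Its change was 0.79 ± 0.04 (adjusted p = 2.6e-27) in KO cells and 0.92 ± 0.04 (adjusted p = 4.4e-31) in WT cells. In WT cells it was higher with phenformin than with 991 by 0.88 ± 0.04 (adjusted p = 1.5e-29). ULK1 was at 16.7, 16.4 and 15.97 TPM in KO cells and 17.97, 17.8 and 16.8 TPM in WT cells with phenformin, rises of 0.59 ± 0.06 and 0.72 ± 0.06. WDR45, the WIPI family member whose window holds TGATGTAA, was at 34.1, 30.6 and 30.98 TPM in KO cells, against 20.3, 17.5 and 17.9 TPM under DMSO, and at 42.7, 40.3 and 41.1 TPM in WT cells, against 23.1, 20.01 and 19.9 TPM. The phenformin libraries did not overlap DMSO in either arm, with changes of 0.75 ± 0.07 and 0.95 ± 0.07.

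The conjugation genes ATG5 and ATG12 were among the members that rose by at least 0.5 with phenformin and not with 991. ATG5, the acceptor of ATG12, was at 17.98, 17.5 and 18.2 TPM with phenformin in KO cells, against 11.6, 11.1 and 12.4 TPM under DMSO, and at 17.7, 16.9 and 17.1 TPM in WT cells, against 11.4, 10.7 and 11.3 TPM. ATG12 was at 10.1, 10.3 and 10.2 TPM in KO cells, against 6.05, 6.24 and 6.87 TPM, and at 11.99, 12.99 and 12.3 TPM in WT cells, against 7.43, 7.34 and 7.35 TPM. The treated groups of both partners lay clear of DMSO in both arms, and their changes in WT cells were 0.58 ± 0.05 (adjusted p = 2.2e-16) and 0.68 ± 0.06 (adjusted p = 9.2e-18). ATG14 was at 5.21, 5.19 and 4.67 TPM in phenformin-treated WT cells (0.56 ± 0.07, adjusted p = 5.3e-12), EPG5 at 2.17, 2.32 and 1.996 TPM (0.51 ± 0.06, adjusted p = 1.3e-11) and TAX1BP1, a receptor for ubiquitylated cargo, at 49.4, 47.6 and 50.1 TPM (0.62 ± 0.04, adjusted p = 1.7e-23). RB1CC1 rose to 22.5, 22.9 and 22.2 TPM in KO cells and 28.05, 27.98 and 27.8 TPM in WT cells, changes of 0.78 ± 0.06 and 1.08 ± 0.06. With 991 it had not passed in KO cells.

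A few members fell with phenformin. ATG2A was at 4.38, 4.23 and 4.08 TPM in KO cells and 3.44, 3.93 and 3.497 TPM in WT cells, the steepest falls of any member (-1.13 ± 0.08 and -1.05 ± 0.08). GABARAPL2 was at 55.9, 54.5 and 57.05 TPM in KO cells, against 90.995, 86.4 and 89.4 TPM under DMSO, and at 74.8, 73.8 and 75.5 TPM in WT cells, against 104.9, 102.02 and 107.3 TPM. Both arms were clear of DMSO (-0.66 ± 0.04 and -0.48 ± 0.04). STX17 was at 2.56, 2.93 and 2.74 TPM with phenformin in KO cells and 4.48, 4.41 and 4.29 TPM in WT cells. It fell in KO cells (-0.52 ± 0.06, adjusted p = 9.1e-13) and did not pass in WT cells (-0.09 ± 0.06, adjusted p = 0.14), a difference of -0.43 ± 0.08 (adjusted p = 0.00013), whereas 991 raised it in both arms.

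With CCCP, GABARAPL1 rose early and with or without AMPK. At 2 h it was at 24.98, 29.4 and 28.1 TPM in KO cells, against 11.2, 11.6 and 10.5 TPM under DMSO, and at 24.7, 26.8 and 24.9 TPM in WT cells, against 15.1, 14.2 and 13.7 TPM. The change was larger in KO cells, 1.23 ± 0.06 (adjusted p = 5e-28) against 0.79 ± 0.06 (adjusted p = 1.5e-17) in WT cells, a difference of 0.45 ± 0.09 (adjusted p = 0.00032) at 2 h and 0.24 ± 0.09 (adjusted p = 0.033) at 4 h, and by 16 h the changes were 0.53 ± 0.06 and 0.40 ± 0.06. SQSTM1 went down with CCCP instead. It was at 34.2, 33.8 and 34.6 TPM at 16 h in KO cells and 37.6, 36.7 and 35.1 TPM in WT cells, below every DMSO library of its arm, with changes of -0.52 ± 0.04 (adjusted p = 1.3e-17) and -0.13 ± 0.04 (adjusted p = 0.0068) and a difference of -0.39 ± 0.06 (adjusted p = 7.3e-07). MAP1LC3B, which encodes LC3B, was at 24.5, 25.98 and 27.7 TPM in KO cells, against 46.7, 41.7 and 41.9 TPM, and at 30.4, 31.6 and 29.9 TPM in WT cells, against 44.8, 39.05 and 38.9 TPM. It fell without overlap in both arms (-0.72 ± 0.05 and -0.40 ± 0.05).

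The responses to CCCP and phenformin were also lower in AMPK KO cells for WIPI1 and ULK2. In KO cells at 16 h, 22 members rose with CCCP (39.6% of all genes), 30 with phenformin (41.2% of all) and 21 with rotenone (35.3% of all). The response was lower in KO than in WT cells for 15 members with CCCP (17.7% of all genes) and higher for 2 (10.5% of all), or 12 and 4 under median-ratio scaling. With phenformin 9 were lower (10.5% of all) and 1 higher (3.38% of all), or 4 and 2 under that scaling, and with rotenone 1 was lower (0.962% of all) and 1 higher (1.01% of all), or 2 and 0. At 4 and 8 h of CCCP, 18 and 20 were lower (20.8% and 13.8% of all), and at 4 h that scaling gave 10 lower and 4 higher, against 2 higher without it. The phenformin total of 10 was 2 without the libraries numbered 2 and 4 without those numbered 3, and the CCCP total of 17 was 9 without those numbered 3. At 4 and 8 h of CCCP the totals, 20 each, were 7 and 12 without number 2 and 11 and 8 without number 3. WIPI1 at 16 h was at 2.87, 2.96 and 3.08 TPM with CCCP in KO cells and 4.59, 4.41 and 4.86 TPM in WT cells, and at 3.18, 2.99 and 2.71 TPM with phenformin in KO cells and 4.54, 4.56 and 4.73 TPM in WT cells. All 6 treated WT libraries were above all 6 treated KO libraries. The response differences were -0.58 ± 0.11 (adjusted p = 4.8e-05) and -0.59 ± 0.11 (adjusted p = 0.00015), and with rotenone -0.18 ± 0.11 (adjusted p = 0.5). ULK2 was at 1.74, 1.77 and 1.93 TPM with rotenone in KO cells and 2.79, 2.69 and 2.799 TPM in WT cells, and its difference passed with all 4 compounds: -0.61 ± 0.09 with CCCP, -0.45 ± 0.09 with phenformin and -0.36 ± 0.09 (adjusted p = 0.023) with rotenone. VPS39 (-0.36 ± 0.08, adjusted p = 0.00018), its HOPS partner VPS41 (-0.41 ± 0.09, adjusted p = 0.00024) and PIK3R4, the regulatory subunit VPS15 (-0.39 ± 0.07, adjusted p = 4.7e-06), had lower responses in KO cells with CCCP. OPTN did so with phenformin (-0.39 ± 0.11, adjusted p = 0.0096). The rotenone call of ULK2 was lost without any 1 replicate number (adjusted p up to 0.34), the phenformin calls of ULK2 and OPTN without number 2, OPTN's also without number 3, and the CCCP call of VPS41 without number 3.

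The FNIP1 table asked whether the 5 AMPK sites of FNIP1 are needed. All differences between SA5 FNIP1 and WT FNIP1 responses at 16 h missed the threshold for the 42 members (0.00751% of all genes passed in each direction), with 2 members at an unadjusted p under 0.05 in limma. The median of all genes in the SA5 FNIP1 response was 0.36 as deposited and near 0 after median-ratio scaling. With all libraries, 22 members rose with 991 at 16 h in SA5 FNIP1 cells (39.2% of all genes) and 7 in WT FNIP1 cells (11.6% of all), and 2 and 3 fell. Of all genes, 5.76% fell in SA5 FNIP1 cells. Under median-ratio scaling 13 rose and 11 fell in SA5 FNIP1 cells, and 10 rose and 2 fell in WT FNIP1 cells. Without the 2 low libraries 20 rose and 5 fell in SA5 FNIP1 cells and 24 rose and 5 fell in WT FNIP1 cells. Of all genes, 34.5% rose and 14.7% fell in SA5 FNIP1 cells in that setting, and 53.6% changed in either direction in WT FNIP1 cells. In the same setting the median response difference over the members was 0.01, and 1 member passed, SQSTM1 (-0.25 ± 0.05, adjusted p = 0.023).

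NBR1 was at 38.2, 38.1 and 39.7 TPM at 16 h in SA5 FNIP1 cells, against 9.35, 24.96 and 23.7 TPM under DMSO, and at 42.5, 43.8 and 44.01 TPM in WT FNIP1 cells, against 28.1, 29.97 and 27.4 TPM. WIPI1 was at 8.25, 8.602 and 7.43 TPM in SA5 FNIP1 cells, against 2.52, 5.001 and 4.87 TPM under DMSO, and at 11.5, 11.1 and 11.5 TPM in WT FNIP1 cells, against 6.88, 7.04 and 7.07 TPM. The treated libraries of both genes stood above DMSO in each arm. Without the low libraries the WIPI1 response difference was -0.01 ± 0.09 (adjusted p = 0.98) and that of NBR1 0.06 ± 0.07 (adjusted p = 0.88). Under DMSO itself 9 members were lower in SA5 FNIP1 cells (8.64% of all genes) and 0 higher (1.69% of all, limma), with 28 at an unadjusted p under 0.05, and without the low libraries 11 were lower (10.5% of all genes in that setting), with a median of -0.10 against -0.05 over all genes, among them WIPI1 (-0.43 ± 0.06, adjusted p = 0.0001), BECN1 (-0.25 ± 0.04, adjusted p = 0.0006) and NBR1 (-0.22 ± 0.05, adjusted p = 0.0039). With all libraries, median-ratio scaling left 3 lower and 1 higher, and without the libraries numbered 2 or 3 of every group 0 passed. CALCOCO2 was at 8.09, 24.5 and 21.9 TPM in SA5 FNIP1 DMSO libraries, against 30.1, 27.2 and 26.1 TPM in WT FNIP1, and BECN1 at 12.4, 40.1 and 38.5 TPM, against 46.9, 45.5 and 47.99 TPM. In both the first SA5 FNIP1 value is that of the low library.

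Under DMSO most members were higher in DKO cells than in WT cells. The count was 28 of 42 (37.6% of all genes) and 1 lower (13.7% of all), with a median of 0.35 against 0.11 over all genes, or 27 and 6 under median-ratio scaling with a median of 0.22. All 5 receptors, 5 of 6 phosphatidylinositol 3-kinase genes and 4 of 5 fusion genes were among them. GABARAPL1 was at 32.8, 35.05 and 34.9 TPM in DKO cells, against 17.4, 20.95 and 19.1 TPM in WT cells, a difference of 0.81 ± 0.05 (adjusted p = 3.3e-13). SQSTM1 was at 84.02, 83.6 and 85.97 TPM, against 45.2, 48.9 and 49.2 TPM (0.81 ± 0.04, adjusted p = 7.7e-16). NBR1 was at 33.02, 30.7 and 29.98 TPM, against 17.7, 17.8 and 18.1 TPM (0.77 ± 0.04, adjusted p = 6.2e-15). None of these 3 groups overlapped its WT group. TAX1BP1 (0.59 ± 0.04), OPTN (0.58 ± 0.06), ULK1 (0.51 ± 0.06), ATG2B (0.51 ± 0.07) and BECN1 (0.50 ± 0.06) were also higher by at least 0.5, and ULK2 was the member that was lower (-0.29 ± 0.09, adjusted p = 0.01).

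With 991, members rose in both arms of the TFEB and TFE3 experiment, and at 16 h NBR1 and GABARAPL1 rose less in DKO cells. At 16 h 21 members rose and 0 fell in DKO cells (35.7% of all genes rose), and 26 rose and 5 fell in WT cells (41.1% of all rose). The median of all genes was 0.11 in DKO cells and 0.13 in WT cells, and once scaling had set it near 0 the splits became 13 and 8 in DKO cells and 18 and 8 in WT cells. The response was lower in DKO cells for 6 members at 16 h (6.91% of all genes) and higher for 1 (5.74% of all), and at 24 h lower for 12 (9.71% of all) and higher for 1 (4.98% of all). The total of 7 at 16 h was 2, 5 and 4 without the libraries numbered 1, 2 and 3, and the total of 13 at 24 h was 4, 9 and 2. At 8 h the response was lower for 5 members and higher for 2. NBR1 at 16 h was at 43.1, 40.7 and 43.7 TPM in DKO cells and 32.9, 32.96 and 32.8 TPM in WT cells. Both arms rose above DMSO, by 0.43 ± 0.04 and 0.84 ± 0.04, and the difference was -0.41 ± 0.06 (adjusted p = 2e-05). GABARAPL1 at 16 h was at 45.98, 43.96 and 47.97 TPM in DKO cells and 33.7, 36.4 and 33.1 TPM in WT cells. The treated DKO libraries were the highest, while the change was 0.41 ± 0.05 and 0.81 ± 0.05, a difference of -0.40 ± 0.07 (adjusted p = 0.0005). PIK3C3 was at 12.1, 10.2 and 11.6 TPM in DKO cells, against 11.3, 10.5 and 10.1 TPM under DMSO, and at 12.2, 11.4 and 11.8 TPM in WT cells, against 7.89, 8.098 and 8.83 TPM, with a difference of -0.38 ± 0.10 (adjusted p = 0.011) that was lost without the libraries numbered 1 or 2. At 8 h its difference was -0.50, the lowest of its step. The lowest difference among lipidation genes was that of ATG10, -0.47 at 8 h and -0.49 at 24 h.

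ATG101, which encodes the HORMA-domain partner of ATG13, went the other way. It was at 28.4, 27.04 and 28.6 TPM at 16 h in DKO cells, against 30.8, 34.9 and 29.9 TPM under DMSO, and at 18.9, 21.3 and 17.9 TPM in WT cells, against 27.7, 29.4 and 31.1 TPM. It fell in WT cells (-0.58 ± 0.08, adjusted p = 5.6e-07) and did not pass in DKO cells (-0.18 ± 0.08, adjusted p = 0.07), a difference of 0.40 ± 0.11 (adjusted p = 0.019) that was lost without the libraries numbered 1 or 3. TAX1BP1 (-0.27 ± 0.06, adjusted p = 0.0036), CALCOCO2 (-0.27 ± 0.06, adjusted p = 0.0046) and VPS39 (-0.31 ± 0.08, adjusted p = 0.0088) had lower responses in DKO cells, and all 3 also passed at 24 h. WIPI1 and ULK2, the members with the lowest AMPK KO minus WT differences, rose in both arms here. WIPI1 was at 8.37, 7.49 and 6.92 TPM at 16 h in DKO cells, against 4.74, 3.704 and 3.48 TPM under DMSO, and at 6.31, 6.599 and 5.43 TPM in WT cells, against 2.68, 3.78 and 3.401 TPM. Its response difference was 0.06 ± 0.15 (adjusted p = 0.85) and that of ULK2 -0.04 ± 0.13 (adjusted p = 0.87).

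**Figure D4:**
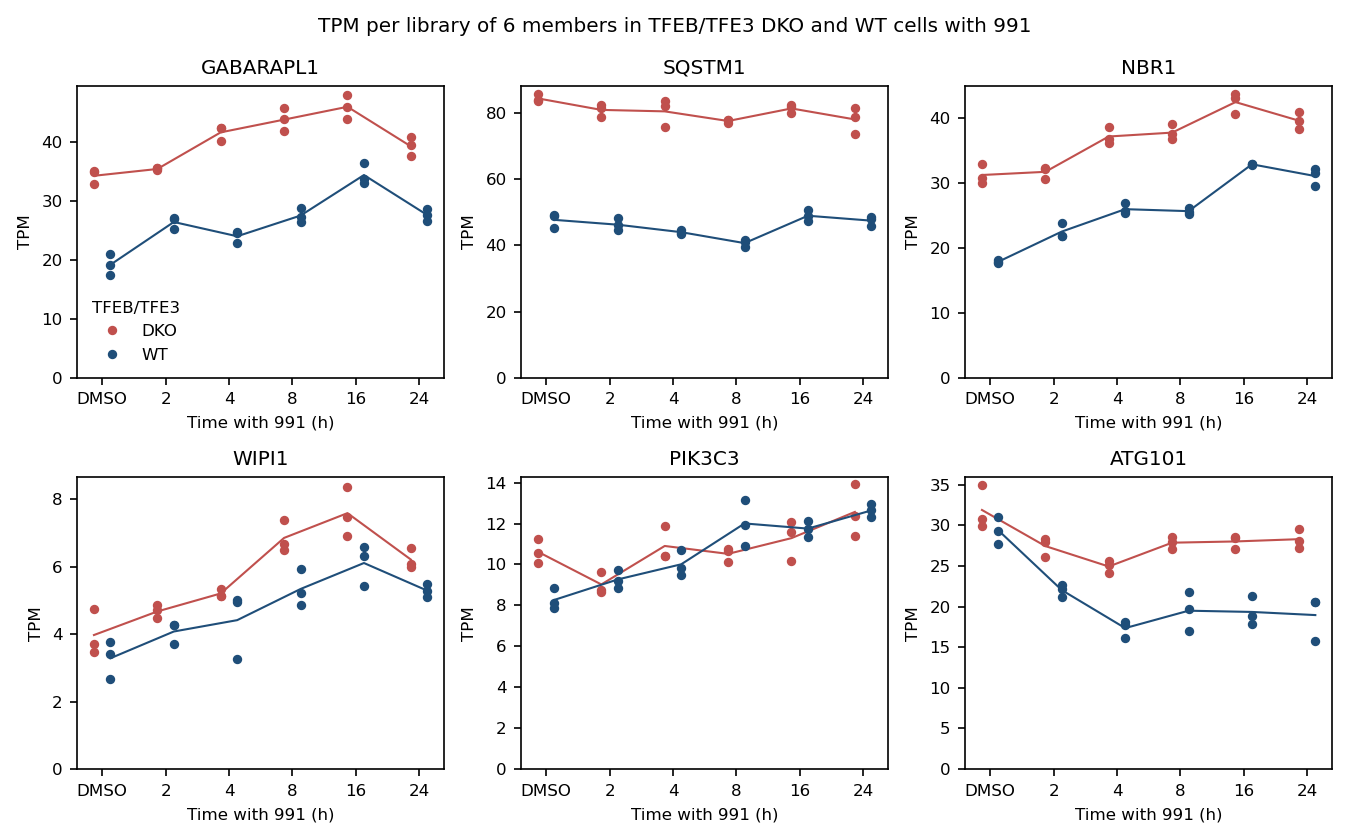
TPM of GABARAPL1, SQSTM1, NBR1, WIPI1, PIK3C3 and ATG101 in each library of DKO cells (red, left at each time) and WT cells (blue), under DMSO and after 2, 4, 8, 16 and 24 h of 991, evenly spaced on the x axis; points are libraries and lines join group means. GABARAPL1, SQSTM1 and NBR1 start higher in DKO cells, and WIPI1 rises in both arms.

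In the ESRRA and PGC1a experiments few response differences passed at 16 h. In ESRRA KO cells 22 members rose with 991 at 16 h (31.5% of all genes) and 5 fell, and in WT cells 22 rose (31.2% of all) and 4 fell, or 15 and 8 in KO cells and 16 and 6 in WT cells under median-ratio scaling. The response was lower in ESRRA KO cells for 2 members (1.53% of all genes) and higher for 0 (1.31% of all), with 4 at an unadjusted p under 0.05 in limma. The 2 were ATG101 and the protease ATG4B. ATG101 was at 17.9, 18.2 and 16.6 TPM in ESRRA KO cells, against 23.6, 26.3 and 25.6 TPM under DMSO, and at 21.6, 20.9 and 21.3 TPM in WT cells, against 24.2, 22.1 and 21.5 TPM. Treated KO libraries were clear of DMSO and WT libraries overlapped it, and the difference was -0.41 ± 0.08 (adjusted p = 0.0032), with -0.19 ± 0.08 (adjusted p = 0.26) at 24 h. The call at 16 h was lost without the libraries numbered 2 or 3. ATG101's change in the WT cells of the 3 experiments was -0.58 ± 0.08 (adjusted p = 5.6e-07) beside DKO, -0.08 ± 0.06 (adjusted p = 0.26) beside ESRRA KO and 0.02 ± 0.06 (adjusted p = 0.75) beside AMPK KO, in tables that were not compared by a test. The WT cells of the ESRRA experiment also held far more FNIP1 RNA than those of the other 2, as given above. At 2, 4, 8 and 24 h the response was lower in ESRRA KO cells for 0, 5, 0 and 1 members and higher for 0. The 5 at 4 h included 3 of the 5 ULK complex genes, and the median difference of that step was -0.28. Over all members the median at 4 h was -0.07, against -0.03 over all genes. Under DMSO 4 members were higher in ESRRA KO cells (6.71% of all genes) and 6 lower (14.7% of all), or 9 and 3 under median-ratio scaling, and none of these reached 0.5. The total of 10 was 2, 5 and 2 without the libraries numbered 1, 2 and 3, and the 27 members that changed in ESRRA KO cells were 17 without number 3. SQSTM1 had a response difference of -0.05 ± 0.05 (adjusted p = 0.69). Its AAGGTCA lies in a window that begins 14449 bases from the transcript of the tables.

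With siPGC1a 22 members rose with 991 at 16 h (39.2% of all genes) and 2 fell, and with siControl 24 rose (44.6% of all) and 4 fell. The median of all genes was 0.14 in siPGC1a and 0.17 in siControl cells, and once scaling had set it near 0 the splits became 15 and 8 in siPGC1a cells and 14 and 12 in siControl cells. The response was lower for 1 member (0.187% of all genes) and higher for 0 (0.0149% of all), with 5 at an unadjusted p under 0.05 in limma. That member was GABARAPL1. It was at 37.6, 37.2 and 36.3 TPM at 16 h in siPGC1a cells, against 25.6, 25.6 and 25.9 TPM under DMSO, and at 32.5, 33.8 and 32.1 TPM in siControl cells, against 15.6, 18.6 and 17.3 TPM. Both arms rose without overlap, the siPGC1a arm from a higher DMSO level (0.56 ± 0.05, adjusted p = 7.9e-09), and the response difference was -0.39 ± 0.08 (adjusted p = 0.018). That call was lost without any 1 replicate number (adjusted p of 0.16 to 0.37). Under DMSO 12 members were higher with siPGC1a (14.3% of all genes) and 1 lower (9.89% of all), or 9 and 2 under median-ratio scaling, and the total of 13 was 7 without the libraries numbered 1 and 8 without those numbered 2. The arms also differed under DMSO in regulators. FNIP1 (0.72 ± 0.05, adjusted p = 9.5e-12) and TFE3 (0.58 ± 0.06, adjusted p = 2.2e-08) were higher with siPGC1a, and ESRRA (-0.22 ± 0.08, adjusted p = 0.042) was lower. The part of these regulators in the member differences was not tested. Differences in WIPI1 and ULK2 responses were -0.03 ± 0.14 (adjusted p = 0.97) and -0.17 ± 0.13 (adjusted p = 0.73).

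**Figure D5:**
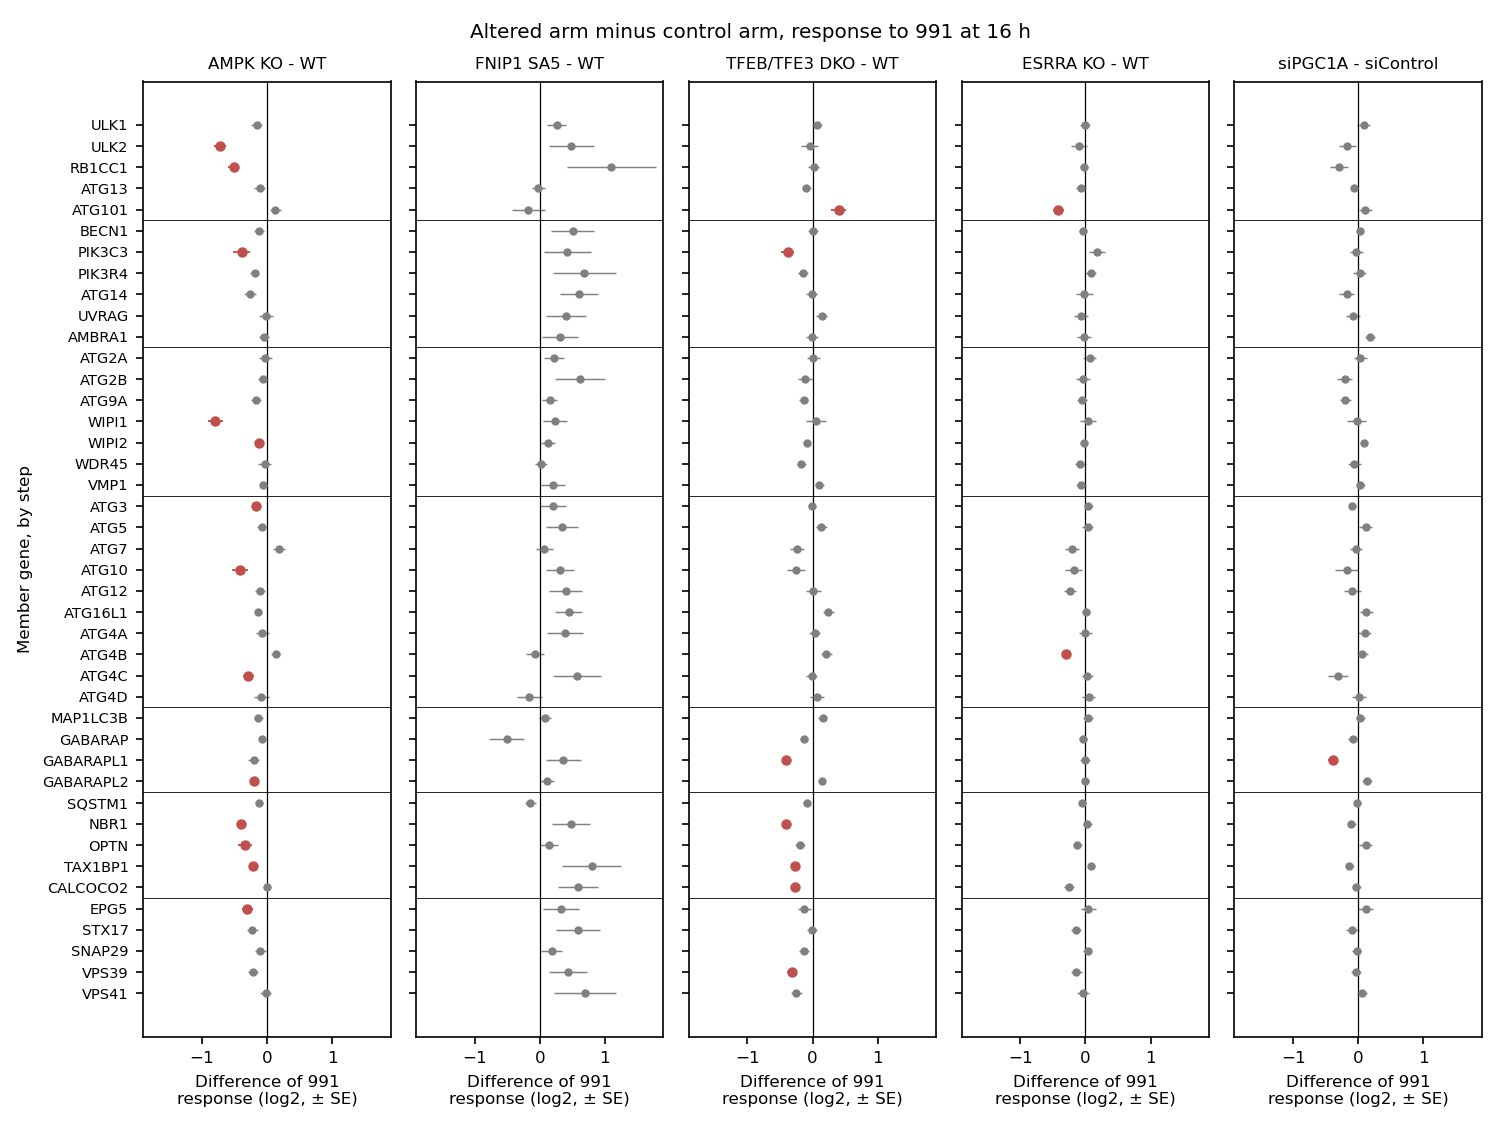
Difference in the log2 response to 991 at 16 h (altered arm minus control arm, ± SE) for the 42 tested members in the 5 experiments; red points passed an adjusted p under 0.05. WIPI1 and ULK2 lie lowest for AMPK KO minus WT and near 0 for DKO minus WT, where NBR1 and GABARAPL1 lie lowest.

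Autophagy genes outside the 43 members were counted beside them. Of a list of 53, 46 were tested in the AMPK table, among them HOPS subunits, ER-phagy receptors and Rubicon. With 991 at 16 h in WT cells 24 rose and 8 fell, where 41.9% of all genes rose and 26.9% fell. With CCCP 24 rose and 11 fell (44.1% and 26.6% of all genes), and with phenformin 29 rose and 10 fell (45.3% and 34.9%). With rotenone 16 rose and 16 fell (36.2% and 29.2%), so the share that rose was near that of all genes. The 991 response was lower in AMPK KO cells for 10 and higher for 2 (10% and 4.96% of all genes). Under DMSO 28 were higher and 6 lower in DKO than in WT cells (37.6% and 13.7% of all genes).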

How the data were processed

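RNA-seq values of HEK 293T cells were taken from 5 deposited tables in TPM, which the authors made from libraries of polyadenylated RNA, and the submitters' processing notes name FastQC, STAR and HOMER with the GRCh38 build, without versions. TPM hold no depth, so counting error is unknown. Samples were grouped by the library names in their titles, and by tags. In each table, genes with at least 1 TPM in at least 3 libraries were tested on log2(TPM + 1) with limma 3.58.1 (R 4.3.3, trend), with 1 mean per group over all libraries of the table and Benjamini-Hochberg adjustment over all genes tested in a comparison. A call is an adjusted p under 0.05. Tables were fitted separately. The fit was tested on simulated data. Tables were read with Python 3.11.15 and pandas 2.3.3. Promoter windows come from RefSeq (GRCh38.p14) and were searched on both strands.

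Single-library values are given for members with a call and a change of at least 0.5 at 16 h, or under DMSO between arms, and response differences of at least 0.35 at 16 h were added to that rule after values had been seen. Genes further named (such as ATG7, GABARAP, SNAP29 or VMP1) illustrate a step. The members and lists were chosen with earlier results of these data known. Alternatives were 0.1 as the pseudocount, no filter, scaling by median ratios, quantile normalization, a replicate block, a fit of only the groups compared, each replicate number left out, and the FNIP1 table without the SA5 FNIP1 libraries low in FNIP1. Leaving out 1 library at a time from the AMPK table (WT 991 4 h replicate 1 or KO DMSO replicate 1) was added after seeing the data. For 3 AMPK WT libraries the title's text and the description name 991 at 2 h, while the library name in the title and the treatment tag give phenformin, and for 3 others they name CCCP at 16 h, while the library name and the time tag give 4 h. Library names, which are the table's column names, and tags were followed.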

Additional observations from a re-analysis of the deposited data

Results flagged for a closer look

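The results below are members whose response to a compound at 16 h differed between the altered and the control arm by at least 0.35 on the log2 scale in limma's test of the difference itself. All values are altered arm minus control arm. In AMPK KO minus WT cells with 991 these were WIPI1 (-0.79), ULK2 (-0.72), RB1CC1 (-0.51), ATG10 (-0.42), NBR1 (-0.40) and PIK3C3 (-0.39).

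With CCCP the AMPK KO minus WT difference was -0.61 for ULK2, -0.58 for WIPI1, -0.41 for VPS41, -0.39 for SQSTM1, -0.39 for PIK3R4 and -0.36 for VPS39. With phenformin it was -0.59 for WIPI1, -0.45 for ULK2, -0.43 for STX17 and -0.39 for OPTN. With rotenone it was -0.36 for ULK2.

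With 991 in DKO minus WT cells the difference was -0.41 for NBR1, -0.40 for GABARAPL1, -0.38 for PIK3C3 and 0.40 for ATG101. In ESRRA KO minus WT cells it was -0.41 for ATG101, and in siPGC1a minus siControl cells -0.39 for GABARAPL1.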

How the results depend on the processing

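Of 49 counts of members called, 27 stayed within 1.5 times under every alternative run, and of 86 named results 72 kept their call in every alternative, while no result changed direction. Under median-ratio scaling the AMPK KO minus WT count was 8 with 991 at 16 h, 6 with phenformin and 13 with CCCP at 8 h, and the SA5 FNIP1 minus WT FNIP1 count under DMSO was 4. Quantile normalization gave 19 for WT FNIP1 with 991, 4 for SA5 FNIP1 under DMSO and 0 for the siPGC1a response difference. A pseudocount of 0.1 gave 0 for the rotenone difference. With no filter 5 were called for SA5 FNIP1 and 6 for ESRRA KO under DMSO. A fit of only the groups compared, which has fewer libraries to estimate the spread, gave 0 for the rotenone, siPGC1a and 4 h 991 differences, 5 for 991 at 8 h, 9 and 12 for CCCP at 4 and 8 h, and 8 for DKO at 24 h. In the same fits AMPK KO under DMSO had 9, SA5 FNIP1 0, ESRRA KO 2 and siPGC1a 7, WT FNIP1 with 991 had 27, SA5 FNIP1 with 991 had 0 and AMPK WT with 991 at 2 h had 3. Without the SA5 FNIP1 libraries low in FNIP1, WT FNIP1 had 29 and the response difference 1.

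Leaving out 1 replicate number of every group, or in the AMPK table WT 991 4 h replicate 1 or KO DMSO replicate 1 alone, gave 4 to 16 for the AMPK KO minus WT difference with 991 at 16 h, 9 to 21 with CCCP, 2 to 15 with phenformin and 0 to 3 with rotenone, 1 to 15 and 5 to 19 with 991 at 4 and 8 h, and 7 to 21 and 8 to 20 with CCCP at 4 and 8 h. It gave 10 to 17 for AMPK KO under DMSO, 0 to 24 for WT FNIP1 with 991, 14 to 23 for SA5 FNIP1 with 991, 0 to 7 for SA5 FNIP1 under DMSO, 2 to 5 and 2 to 9 for the DKO difference at 16 and 24 h, 0 to 1 for the ESRRA KO difference, 2 to 5 for ESRRA KO under DMSO, 17 to 21 for ESRRA KO with 991, 0 to 0 for the siPGC1a difference, 7 to 11 for siPGC1a under DMSO, 11 to 18 for rotenone against 991 and 3 to 15 for AMPK WT with 991 at 2 h. The causes of the other shifts were not tested. Same-numbered libraries did not deviate together in every pair (34.6% of 1683 pairs in the AMPK table had a correlation over 0.1). The median correlation there was 0.051 for pairs of the same number and -0.024 for other numbers. These values do not settle whether the numbers pair the libraries. With the replicate block the count was 34 for AMPK WT with 991, 17 for its KO minus WT difference and 8 for the DKO difference, and no count moved by over 1.5 times.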

Other observations

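Among the autophagy genes outside the members, 4 with large changes in AMPK WT cells at 16 h are given here, picked after their values were seen. WDFY3, which encodes the aggregate-associated scaffold ALFY, averaged 5.19 ± 0.185 TPM with phenformin and 3.84 ± 0.187 TPM with 991, against 2.15 ± 0.0515 TPM under DMSO (SD, n = 3 each), log2 changes of 0.97 ± 0.07 and 0.62 ± 0.07. CCPG1, an ER-phagy receptor, averaged 21.2 ± 0.514 TPM with phenformin and 11.1 ± 0.407 TPM with 991, against 9.42 ± 0.639 TPM under DMSO, changes of 1.09 ± 0.06 and 0.22 ± 0.06. RUBCN, which encodes the inhibitor Rubicon, averaged 4.98 ± 0.0391 TPM with phenformin and 2.40 ± 0.0186 TPM with 991, against 1.96 ± 0.204 TPM, changes of 1.02 ± 0.05 and 0.20 ± 0.05. ATG16L2, a paralog of ATG16L1, averaged 1.80 ± 0.224 TPM with phenformin and 2.60 ± 0.230 TPM with 991, against 3.93 ± 0.0844 TPM, changes of -0.82 ± 0.10 and -0.45 ± 0.10. All 8 changes passed in limma.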
